A study of Mus musculus with 8 samples.

Results

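The SLAM family receptors are cell surface proteins of the immunoglobulin superfamily. The part of the data described here is DNA methylation at 8 of their genes, Ly9, Slamf7, Cd48, Slamf1, Cd84, Slamf6, Slamf9 and Slamf8. The mouse autosomes and X hold 21755 protein-coding genes. The members were taken by name, and each was given its gene body (GENCODE M21, GRCm38) with 10 kb to either side. These regions held 2781 of the 18714703 CpGs that were covered by at least 5 reads in every file. No CpG was shared between the regions of different members.

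Whole-genome bisulfite sequencing was done on B cells (CD43-) and naive T cells (CD4+CD62L+, sorted as CD62Lhi, CD44lo and CD25-) from spleens of female and male C57BL/6J mice aged 6 to 8 weeks. The labels name no transgene and no treatment. The 8 samples formed 4 groups by cell type and sex with 2 samples in each, and each sample was a pool of cells from several animals. The samples of a group point to 1 common file, so there was 1 set of values per group, without a spread between replicates. The comparison of B with T cells was therefore made once in females and once in males. Bisulfite reads do not separate 5-methylcytosine from 5-hydroxymethylcytosine, and "methylation level" below is the percentage of reads that were protected, by either mark.

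SLAM receptors sit on lymphocytes and other blood cells, and most of them bind a copy of themselves on the opposing cell. Cd48 is an exception, a lipid-anchored protein that serves as ligand for Cd244 and Cd2. In most of the transmembrane members, tyrosine motifs in the cytoplasmic tail recruit the adaptor SAP (gene Sh2d1a), which brings in the kinase Fyn, and its relative EAT-2 (Sh2d1b1). In competition with phosphatases, these adaptors set the signal at contacts between T and B cells. A CpG that is methylated in a cell type is, in general, less often part of an active promoter or enhancer there.

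Autosomal coverage summed over listed CpGs was between 278275973 and 339923001 per file, a mean depth of 14.6 to 17.7 reads per CpG. In the member regions mean depth ran from 12.8 to 20.5. The labelled cell types were checked at the gene starts of markers, which were chosen with earlier results of these data known. All 6 B cell markers were lower in B cells (8.19% to 32.8% in the B files against 35.9% to 93.6% in the T files), and all 6 T cell markers were lower in T cells (1.87% to 20% against 67.0% to 95.5%). Both CD8 T cell genes were also lower in T cells, at 38.5% to 70.9% against 89.5% to 90.3%, and CD8+ cells had been depleted in the preparation. Neither NK cell marker was called, with 78.7% to 88.9% in all files, nor was any of the 4 myeloid markers, of which Cd14 had 12.7% to 18.0% in all files. Lyz2, the myeloid lysozyme, came nearest, at 41.5% and 50.7% in B and 64.1% and 66.7% in T, a difference of -19.3 points (adjusted p = 0.0436) that fell short of 20 points. The part of other cell types in the family's differences was not tested.

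The 8 genes lie on chromosome 1. Ly9 (chr1:171588624-171607410, minus strand), Slamf7 (chr1:171632403-171653035, minus), Cd48 (chr1:171682009-171705258, plus), Slamf1 (chr1:171767127-171801184, plus), Cd84 (chr1:171839697-171890718, plus) and Slamf6 (chr1:171917515-171953170, plus) follow each other. They lie within 385 kb, with the 10 kb before the first and after the last of them included. Slamf9 (chr1:172475358-172478575, plus) and Slamf8 (chr1:172581758-172590568, minus) lie apart, 522187 bp beyond the end of Slamf6. The whole of Ly9 lies within the gene body of Cd244a, the receptor for Cd48, on the opposite strand, so reads there cannot be given to either gene. Cd244a is itself a SLAM receptor, but it was not among the 8 members and was listed with the partners. Between 77.7% (Cd84) and 97.6% (Slamf8) of the reference CpGs of a region were measured.

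The following stretches come from the top window of 5 members and are shown first because the results below turn on these windows. Each was cut around CpGs of the member's top window that differed by at least 20 percentage points in both sexes, is written 5′ to 3′ on the strand of the gene, and has its CpGs in capitals. Coordinates and bases are from GRCm38. For Slamf7 there is a stretch in each direction.
Slamf7, lower in B (chr1:171647758-171648009): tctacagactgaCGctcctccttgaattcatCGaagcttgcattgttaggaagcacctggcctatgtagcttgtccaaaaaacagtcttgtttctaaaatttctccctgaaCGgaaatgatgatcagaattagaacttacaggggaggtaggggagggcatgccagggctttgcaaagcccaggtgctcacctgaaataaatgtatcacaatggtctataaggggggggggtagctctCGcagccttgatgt
Slamf7, higher in B (chr1:171643684-171643976): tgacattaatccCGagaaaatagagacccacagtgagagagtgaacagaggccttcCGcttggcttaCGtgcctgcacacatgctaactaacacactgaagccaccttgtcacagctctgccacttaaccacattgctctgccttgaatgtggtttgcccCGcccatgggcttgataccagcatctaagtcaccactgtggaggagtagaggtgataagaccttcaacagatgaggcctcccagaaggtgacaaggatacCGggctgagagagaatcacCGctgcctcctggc
Slamf1, higher in B (chr1:171772305-171772563): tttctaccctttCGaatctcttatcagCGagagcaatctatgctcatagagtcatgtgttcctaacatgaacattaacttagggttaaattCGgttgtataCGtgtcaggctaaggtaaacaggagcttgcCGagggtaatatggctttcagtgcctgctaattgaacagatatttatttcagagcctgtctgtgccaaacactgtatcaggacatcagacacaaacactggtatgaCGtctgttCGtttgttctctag
Cd84, lower in B (chr1:171848803-171848973): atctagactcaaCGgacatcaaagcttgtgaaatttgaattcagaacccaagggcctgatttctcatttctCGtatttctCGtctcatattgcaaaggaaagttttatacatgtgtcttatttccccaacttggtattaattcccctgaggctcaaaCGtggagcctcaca
Slamf6, higher in B (chr1:171961708-171961993): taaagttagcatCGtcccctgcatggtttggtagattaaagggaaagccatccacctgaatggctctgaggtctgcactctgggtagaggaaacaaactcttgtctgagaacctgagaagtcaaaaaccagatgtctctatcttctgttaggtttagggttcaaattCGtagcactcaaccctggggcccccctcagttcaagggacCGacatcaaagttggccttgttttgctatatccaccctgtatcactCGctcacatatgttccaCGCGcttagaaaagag
Slamf9, lower in B (chr1:172473310-172473387): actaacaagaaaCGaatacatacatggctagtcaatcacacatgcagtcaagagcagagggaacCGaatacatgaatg

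In the stretches of Slamf6, Slamf1 and Cd84 B and T cells were close to opposite states. The 6 CpGs of the Slamf6 stretch were at 97.8% and 95.2% in the female and male B files and at 5.81% and 8.18% in the female and male T files (83 to 110 reads per file). The 7 CpGs of the Slamf1 stretch were at 89.3% in both B files and at 1.35% and 11.6% in the T files (121 to 148 reads). The stretch of Cd84 was reversed, with 3.33% and 2.86% in B against 91.4% and 89.3% in T over 4 CpGs (30 to 75 reads).

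In Slamf7 both directions occurred within the same intron. The stretch lower in B was at 6.45% and 4.41% in B and at 78.1% and 91.8% in T over 4 CpGs. The stretch higher in B was at 79.7% and 63.2% in B and at 3.96% and 0% in T over 6 CpGs. There the 0 of 103 reads, summed over the CpGs, allows a level of up to 2.91% if taken as independent. The 2 CpGs of the Slamf9 stretch were at 35.0% and 14.3% in B and at 86.8% and 97.9% in T, on 20 to 48 reads. All these CpGs were chosen for their difference, so the levels describe the stretches and were not tested.

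To ask where the family differed between B and T cells, the genome was cut into 1 kb windows with at least 3 CpGs, and the methylated and unmethylated reads were fitted with cell type and sex as terms. A window was called at a Benjamini-Hochberg adjusted p under 0.05 over all windows and a mean difference, B minus T, of at least 20 points. A window that overlapped a member's region, even in part, was counted to that member. Over the genome 2.08% of 2018320 windows were called. In the family 35 of 326 windows were called, or 10.7%, of which 22 were higher in B (1.16% of all windows were) and 13 lower (0.912% of all). The difference reached 20 points in each sex in 28 of the 35. The calls were made on the mean over both sexes, which nearly fixes the sign in each. Across all 326 windows the median difference was -0.29 points, beside 0.049 over all windows tested, and 219 windows were above 80% in every file.

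The calls were unevenly placed along the cluster. Ly9 had none in 36 windows. Its neighbour Slamf7 had 8 in 41, of which 7 were lower in B. Cd48 had 1 in 33, higher in B. Slamf1 had 13 in 51, of which 10 were higher in B and 3 lower. Cd84 had 5 in 60, with 4 higher and 1 lower, and Slamf6 had 6 in 53, all of them higher in B. The last called window of Slamf6 (chr1:171963001-171964000) lies mostly beyond the end of its region at 171963170. Slamf9 had 2 in 24, both lower, and Slamf8 had none in 28. The difference in counts between members was not tested. In the stretches between the regions from Ly9 to Slamf6, 3 of 68 windows were called (4.41%). The long interval from Slamf6 to Slamf9, which holds genes of other families, had 12 of 488 (2.46%). Between the regions of Slamf9 and Slamf8 there were 3 of 82 (3.66%), all lower in B.

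**Figure D1:**
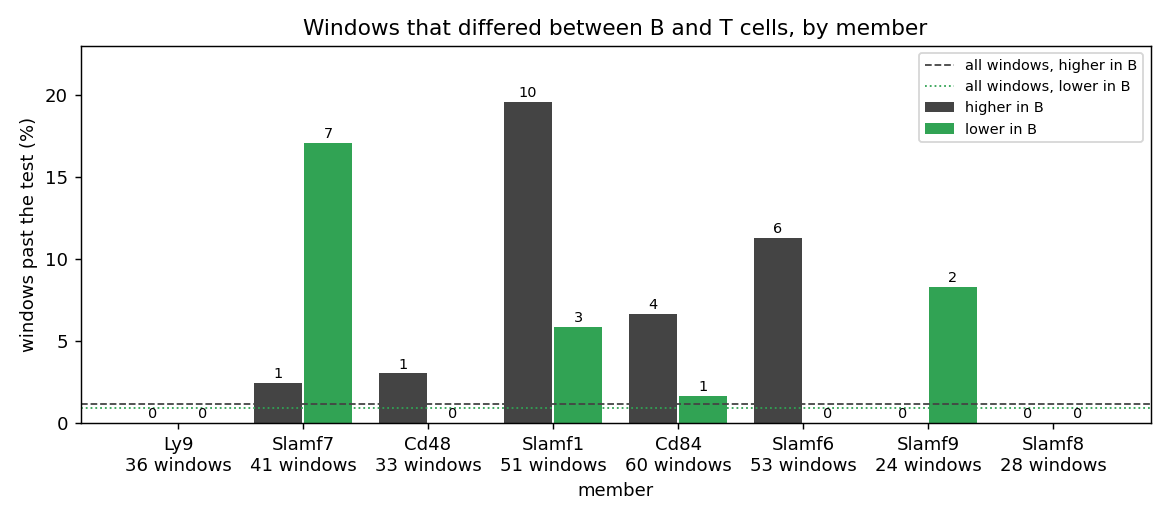
Share of 1 kb windows past the test in each SLAM family gene with 10 kb to either side (y axis, percent; members on the x axis in the order of the chromosome), higher in B in grey and lower in B in green, with the number of windows on each bar; the dashed and dotted lines are the shares over all windows of the genome, 1.16% and 0.912%. Slamf7 stands out for windows lower in B (7), Slamf1 and Slamf6 for windows higher in B (10 and 6), and Ly9 and Slamf8 have none.

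The count changed with the test and the depth. With limma on log2 ratios 18 of the family's windows were called, 8 of them higher and 10 lower in B. That was 5.52% of the family's windows, beside 1.02% of all windows. With at least 10 reads per CpG 22 of 243 were called, or 9.05% beside 2.61% of all windows. Of the 20 windows named below, 11 kept the call in every alternative in which the same window could be tested. Among the 11, the windows of Slamf7 at 171653001, Cd84 at 171848001 and Slamf9 at 172473001 could not be tested with at least 10 reads per CpG. Too few of their CpGs had that depth.

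Of the 35 called windows, 25 overlapped the body of their gene (13.9% of 180 such windows were called) and 7 lay within 1 kb of an annotated protein-coding start (22.6% of 31), where 10.7% of all the family's windows were called. The difference between places was not tested. By place, 93 windows were intronic, with 10 called higher and 5 lower in B, while 12 windows held a start and 2 of them were called, both lower in B and both in Slamf7. Upstream of the genes 6 of 74 windows were called and downstream 4 of 72.

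**Figure D2:**
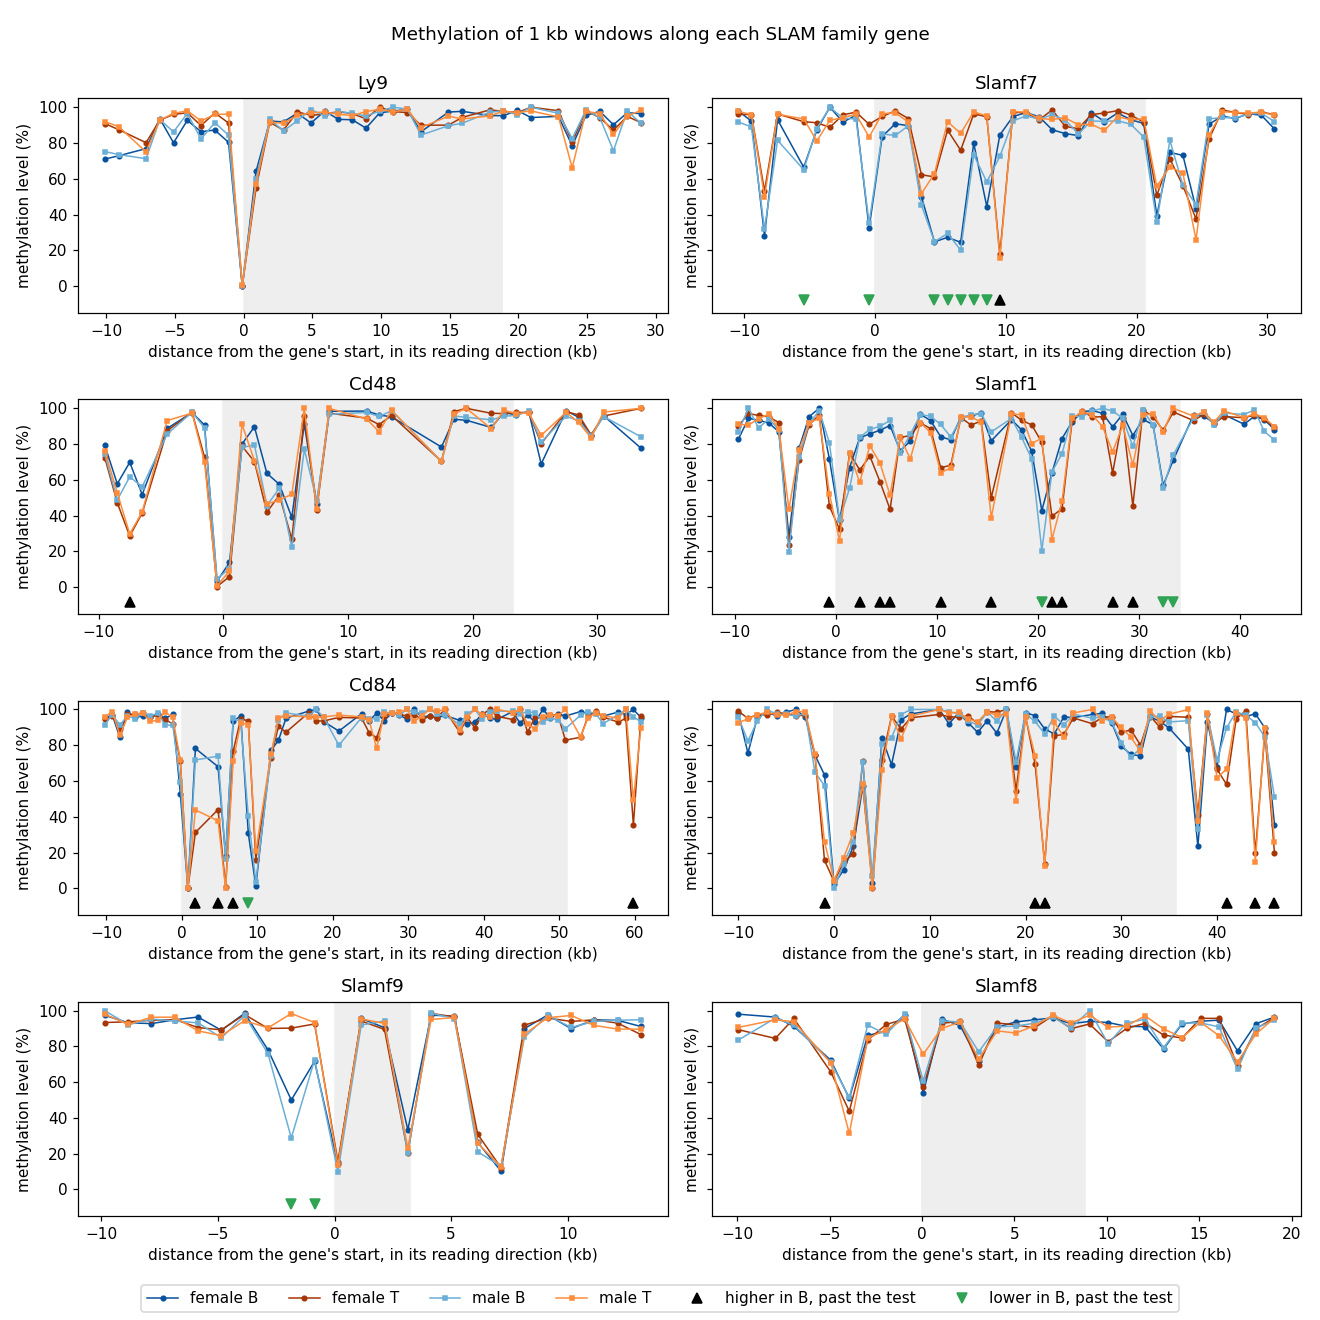
Methylation level (y axis, percent) of 1 kb windows against the distance from the start of each SLAM family gene in its reading direction (x axis, kb), with the gene body shaded, B files in blue, T files in orange and brown, circles for females and squares for males; triangles mark called windows, pointing up where B was higher. The B and T lines separate over 5 neighbouring windows of Slamf7 (B lower) and, in both directions, at windows along the length of Slamf1. They also separate at a pair of neighbouring windows and at single windows of Slamf6 and at single windows of Cd84. No window of Ly9 or Slamf8 is marked.

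Slamf7, a receptor known from NK cells and antibody-secreting plasma cells, had the longest run of calls in the family. From chr1:171644001 to 171649000, 5 neighbouring windows with 44 CpGs were lower in B, at 41% in the female and 43.3% in the male B file against 84.0% and 87.2% in T (617 to 820 reads per file). The run lies mostly in the second intron of the longest principal transcript and ends at the cluster of 3 further annotated starts about 4 kb inside the gene. Its strongest window (chr1:171647001-171648000, 8 CpGs) was at 27.3% and 29.4% in B and at 87.2% and 91.9% in T, a difference of -61.2 points (adjusted p = 3.52e-37). The Wilson 95% intervals were 19.8% to 36.3% and 22.4% to 37.6% in B, apart from 80.2% to 92.0% and 86.7% to 95.2% in T. The window next to it (chr1:171646001-171647000) differed by -58.3 points, with B at 24.5% and 20.2% and T at 75.9% and 85.3%.

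Directly beyond this run the sign turned. The window at chr1:171643001-171644000 was at 84.5% and 72.6% in B and at 17.7% and 15.6% in T, a difference of 61.9 points (adjusted p = 1.49e-41). Of its 11 CpGs, 8 were higher in B by at least 20 points in both sexes and none was lower. The 8 CpGs lay between 9035 and 9483 bp from the gene's start. In the adjoining window (chr1:171644001-171645000) B was at 44.4% and 58.3% and T at 94.7% and 95.1%.

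The start of Slamf7 was the only family start called. Within 1 kb of the annotated start (12 CpGs, 150 to 198 reads) methylation was 72.0% in female B, 72.2% in male B, 93.8% in female T and 94.4% in male T. The difference was -22.0 points (adjusted p = 0.0108), among 193 of 21082 gene starts called, or 0.915%. It rested on few CpGs: with at least 10 reads per CpG the difference was -8.01 points and the call was lost, and within 500 bp of the start it was -48.3 points. The call was also lost on leaving out any of the 4 files, in fits without the sex term, at differences of -22.2 to -21.7 points. The 1 kb window at the start (chr1:171653001-171654000, 4 CpGs) was at 32.4% and 35.3% in B and 90.5% and 83.3% in T.

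The second group of Slamf7 starts, where the RefSeq start lies, had a promoter without marked reads, while B was lower than T around it. Its promoter, from 250 bases before to 50 after the RefSeq start (chr1:171648950-171649249, GRCm38.p6), is shown because it borders the run.
Slamf7, RefSeq promoter: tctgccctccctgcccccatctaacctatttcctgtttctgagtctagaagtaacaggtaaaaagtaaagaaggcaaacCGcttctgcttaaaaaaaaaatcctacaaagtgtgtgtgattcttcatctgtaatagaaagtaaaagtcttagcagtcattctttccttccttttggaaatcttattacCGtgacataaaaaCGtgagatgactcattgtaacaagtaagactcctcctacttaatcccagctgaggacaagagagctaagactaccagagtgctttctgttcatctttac
The 2 measured CpGs of 3 were at 0% in all 4 files, on 17 to 27 reads. Within 500 bp of the start at 171649007 the levels were 25.2% and 30% in B and 51.1% and 49.1% in T over 13 CpGs. The window that holds other starts of this group (chr1:171648001-171649000, 12 CpGs) was called, at 24.7% and 24.8% in B and 61.0% and 62.9% in T. No read of the promoter carried a mark in either cell type, which allows up to 17.6% in the file with the fewest reads.

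**Figure D3:**
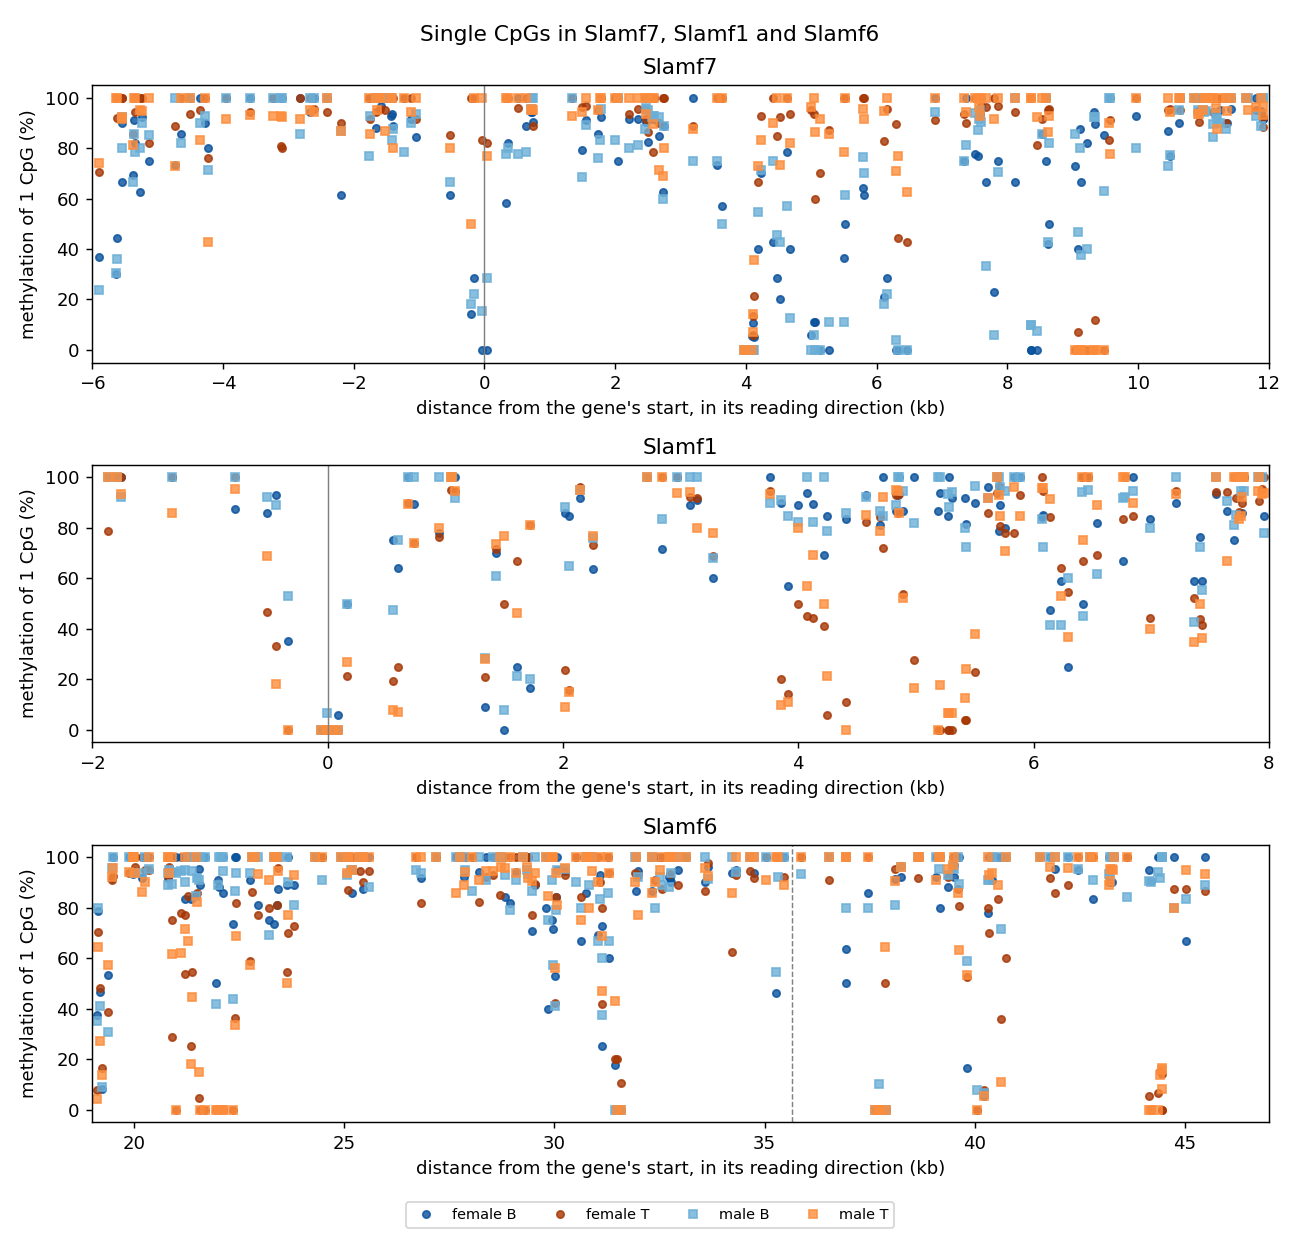
Methylation level of single CpGs (y axis, percent) against distance from the gene's start in its reading direction (x axis, kb) in Slamf7, the first part of Slamf1 and the end of Slamf6, with B files in blue, T files in orange and brown, circles for females and squares for males; the solid line marks the start and the dashed line the end of Slamf6. In Slamf7 B cells are below T cells between about 4 and 9 kb and above them just beyond, in Slamf1 T cells are low around 5 kb, and in Slamf6 T cells are low near 22 and 44 kb.

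Slamf1, also called SLAM or CD150 and the namesake of the family, had the largest number of calls. Its top window (chr1:171772001-171773000, 16 CpGs, in the first intron) was at 90.4% in female B, 93.3% in male B, 43.5% in female T and 51.4% in male T, a difference of 44.4 points (adjusted p = 6.54e-53). Together with the window before it, 29 CpGs were at 89.4% and 92.0% in B and at 49.7% and 58.5% in T. A window in the third intron (chr1:171782001-171783000, 9 CpGs) was at 81.8% and 86.8% in B and at 50% and 38.8% in T. A further one in the fourth intron (chr1:171789001-171790000) differed by 32.9 points, and its call was lost with limma and with the spread taken from all windows. All 3 windows lower in B lay at least 20 kb from the start.

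Of these 3, the window at chr1:171787001-171788000 had B at 42.9% and 20.5% and T at 81.0% and 83.3%, a difference of -50.5 points on 3 CpGs and 28 to 58 reads. Only 1 of its CpGs passed 20 points in both sexes, and the call was lost with the spread taken from all windows. The windows at chr1:171799001-171800000 and chr1:171800001-171801000 overlap a coding exon and the UTR at the end of the gene and differed by -31.1 and -26.4 points. The former lost its call with limma, the latter with the spread taken from all windows. In the former 3 of 7 CpGs passed 20 points in both sexes, in the latter 1 of 4. B cells were at 57.0% and 55.4% in the window at 171799001, against 87.7% and 86.9% in T. As in Slamf7, the opposite signs met: the window next to the one at 171787001 (chr1:171788001-171789000) was higher in B, with 63.8% and 64.4% against 39.7% and 26.6%.

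At the start of Slamf1, B cells were at 48.1% and 51.8% and T cells at 38.0% and 35.6% within 1 kb (15 CpGs), a difference of 13.1 points that did not pass (adjusted p = 0.191). Averaged over CpGs with equal weight in place of reads, it was 20.8 points. The B files lay above the T files without overlap. The start itself was unmethylated in both cell types: in the RefSeq promoter (4 CpGs) the levels were 0% in 3 files and 1.69% in male B. The window just upstream (chr1:171766001-171767000) was called, at 71.7% and 80.8% in B against 45.3% and 52.3% in T.

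Slamf6 (Ly108) is a receptor of T, B and NK cells, and its 6 calls were all higher in B. The largest difference of the family was downstream of the gene (chr1:171961001-171962000, 8 CpGs), with 97.6% in female B, 92.7% in male B, 19.5% in female T and 14.9% in male T, or 78.0 points (adjusted p = 6.55e-61). A second window within the gene (chr1:171939001-171940000, 13 CpGs, overlapping a coding exon) was at 89.1% and 86.3% in B and at 13.8% and 12.5% in T, or 74.5 points (adjusted p = 2.19e-89). Of its 13 CpGs 11 were higher in B by 20 points in both sexes. The third named window lay about 1 kb upstream of the start (chr1:171916001-171917000, 10 CpGs), with 63.4% and 57.4% in B and 15.6% and 26.0% in T, and it lost its call with limma. The difference was 39.6 points, and 65.0 with at least 10 reads per CpG. The CpGs that dropped out at that depth included those at 171916215, 171916248 and 171916270, which were at 0% to 28.6% in all files.

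The start of Slamf6 was low in all files, at 6.98% and 9.65% in B and 7.43% and 5.96% in T within 1 kb (26 CpGs, 430 to 579 reads), and the files of the cell types overlapped. Its RefSeq promoter held 1 CpG, at 7.69% and 0% in B and 36.8% and 23.5% in T on 11 to 19 reads. A window about 4 kb into the gene was low as well, at 3.08% and 6.73% in B and 0% in both T files. None of the 6 called windows of Slamf6 held its start.

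Cd84 is a homophilic receptor that acts in contacts of T and B cells. Its strongest window lower in B (chr1:171848001-171849000, 5 CpGs, in the second intron) was at 30.95% and 40.4% in B against 93.6% and 91.6% in T, a difference of -56.9 points (adjusted p = 4.56e-17). The strongest in the other direction lay beyond the gene's end (chr1:171899001-171900000, 3 CpGs), with 100% and 96.0% in B and 35.3% and 49.3% in T, or 55.7 points. Its other named windows (chr1:171841001-171842000 and chr1:171844001-171845000) were higher in B by 37.4 and 30.1 points on 4 CpGs each, and both lost the call with limma, with Fisher's exact test in each sex and with the spread taken from all windows. The latter also lost it without the male B file, at 27.2 points. The 5 called windows of Cd84 had 3 to 7 CpGs each.

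The start of Cd84 had 6 measured CpGs, at 41.1% and 52.1% in B and 56.8% and 51.9% in T within 1 kb, and did not pass (-7.75 points, adjusted p = 0.779). Around the further annotated start at chr1:171840565, inside the gene, the level was 0% in all 4 files over 4 CpGs, on 47 to 66 reads, which allows at most 6.38%. No marked read was seen there in either cell type.

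Cd48, the lipid-anchored ligand, had 1 called window (chr1:171674001-171675000), upstream of the gene, at 69.8% and 61.7% in B and 28.6% and 29.8% in T. The difference of 36.6 points (adjusted p = 0.000184) rested on 3 CpGs, of which 1 differed by 20 points in both sexes, and it was lost with limma, with Fisher's exact test and with the spread taken from all windows. That CpG, on 7 to 18 reads per file, lies in the following sequence.
Cd48, higher in B (chr1:171674932-171674957): gaagcaaggtctCGggtagctcaaac
The start of Cd48 was low in all files, at 10.6% and 9.47% in B and 5.43% and 6.91% in T (29 CpGs, 378 to 550 reads). Both B files were above both T files, by 3.85 points on average (adjusted p = 0.38).

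Ly9 (CD229), another homophilic receptor of T and B cells, had no call. Its start was at 12.5% and 15.2% in B and 15.1% and 14.2% in T within 1 kb (15 CpGs), with overlapping cell types, and the 10 CpGs of the window at the start were at 0% in 3 files and 0.602% in male T. The windows with the largest differences lay upstream, towards Slamf7, and were lower in B without reaching 20 points. At chr1:171617001-171618000, outside every annotated protein-coding gene, B was at 71.0% and 75.2% and T at 90.9% and 92.0%, a difference of -18.3 points (adjusted p = 2.47e-10).

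Slamf9 and Slamf8 lack the tyrosine motifs found in most of the transmembrane members and are known mainly from myeloid cells. Slamf9 had 2 calls, directly upstream of its start. In the window at chr1:172473001-172474000 B was at 50% and 28.8% and T at 90.2% and 98.4%, a difference of -54.9 points on 3 CpGs (adjusted p = 5.6e-13). The next window (chr1:172474001-172475000, 7 CpGs) was at 71.6% and 72.4% in B and 92.5% and 93.3% in T, and lost its call with limma. Only 2 of its 7 CpGs were lower in B by at least 20 points in both sexes. In the RefSeq promoter that follows, all files were low, from 0% to 6.50%. Slamf8 had no call, and its largest window difference was 13.6 points (adjusted p = 0.393). Its RefSeq promoter was at 27.5% and 25% in B and 31.4% and 52.6% in T over 4 CpGs, partly methylated in every file.

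Ordered by the mean over files, the starts ran from Slamf6, Cd48 and Ly9, each at most 15.2% in every file, through Slamf1, Cd84 and Slamf9, to Slamf8 and Slamf7. The levels of Slamf6 and Cd48 overlapped, as did those of Slamf1, Cd84 and Slamf9 in part, and the intervals of their files did too. Those of Slamf8 and Slamf7 were not in one order either, since both B files of Slamf7 lay below and both T files above every file of Slamf8. Member starts held 6 to 29 measured CpGs, with a median of 17 beside 61 over all gene starts, and the ratio of observed to expected CpGs in the reference was between 0.106 (Cd84) and 0.28 (Slamf6). The median absolute difference between B and T over the 8 starts was 5.50 points, beside 1.18 over all gene starts.

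**Figure D4:**
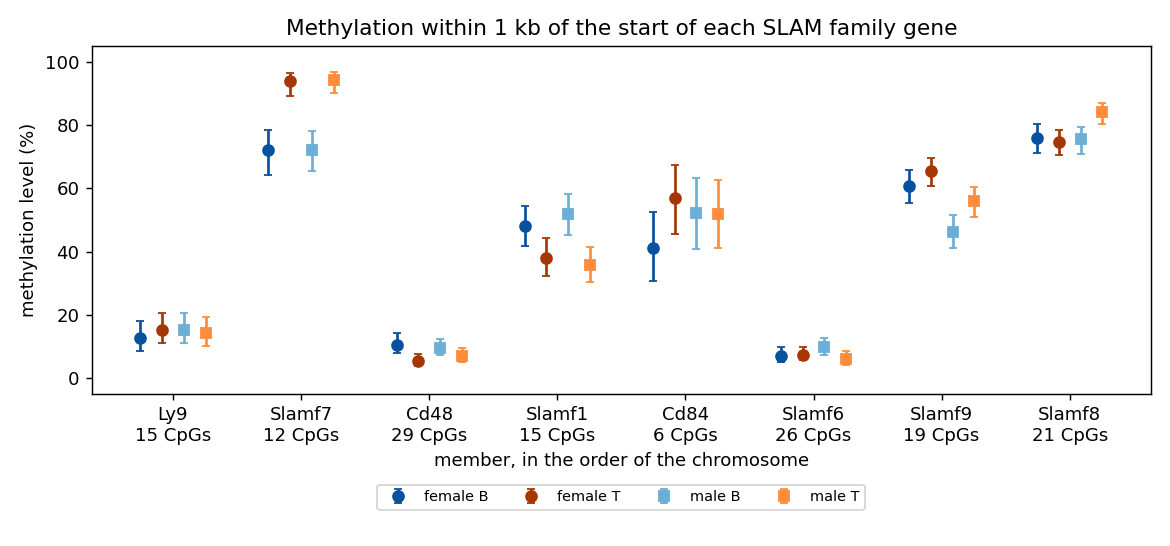
Methylation level (y axis, percent) within 1 kb of the annotated start of the 8 SLAM family genes (x axis, in the order of the chromosome, with the number of CpGs), by file, with Wilson 95% intervals for counting error; blue is B, orange and brown T, circles female and squares male. The B files of Slamf7 (72.0% and 72.2%) lie below its T files (93.8% and 94.4%), while Ly9, Cd48 and Slamf6 are low in every file.

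Averaged over whole gene regions none of the 8 members was called, beside 0.376% of 21564 gene regions at an adjusted p under 0.05 and 10 points. The median absolute difference over the 8 regions was 2.83 points, beside 1.14 over all gene regions. The test again was the quasi-binomial fit. At an unadjusted p under 0.05 there were 5 members, where 16.1% of all gene regions were, and with limma 0 were called and 5 were under 0.05 unadjusted (16.3% of all). Slamf7 had 81.8% and 80.2% in B and 88.1% and 87.9% in T, a difference of -7.00 points (adjusted p = 0.0853). In its neighbours beyond Cd48 the values had the opposite sign without passing the test: Slamf1 differed by 6.20 points (84.9% and 84.8% against 78.9% and 78.3%, adjusted p = 0.099), and Slamf6 by 5.09 points (74.5% and 76.5% against 70.0% and 70.9%, adjusted p = 0.162). The remaining members ranged from -3.02 points (Ly9) to 2.65 (Cd48).

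Single CpGs were counted as a description, without a test. In the family 150 of 2781 CpGs (5.39%) were higher in B by at least 20 points in both sexes, where 1.59% of all CpGs were, and 104 (3.74%) were lower, where 1.43% were. Slamf1 had 59 higher and 14 lower of 411, Slamf6 43 higher and 14 lower of 398, and Slamf7 11 higher and 41 lower of 382. In Ly9 none was higher and 8 of 266 were lower, and Slamf8 had 1 higher and 4 lower of 286. Of these CpGs 92 of the 150 and 43 of the 104 lay in called windows.

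Between females and males no family window was called, where 0.00103% of autosomal windows were (20 of 1950708). The quasi-binomial fit had 15 of 326 windows at an unadjusted p under 0.05 for sex (4.60%, beside 4.62% of autosomal windows), and limma 24 (7.36%, beside 5.18%) with none called. The start of Slamf9 was the member start with the largest sex difference, at 60.6% and 65.3% in female B and T and 46.2% and 55.8% in male B and T. Averaged over B and T it was 11.9 points higher in females. The sex term of the quasi-binomial fit had an unadjusted p of 0.0082 and did not pass after adjustment over all gene starts.

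**Figure D5:**
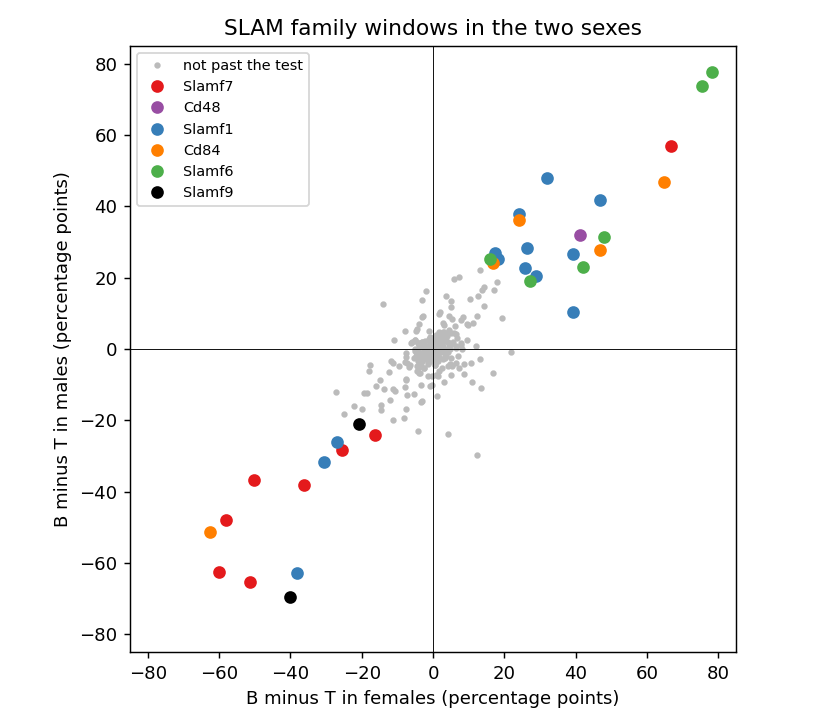
B minus T in females (x axis, percentage points) against B minus T in males (y axis, percentage points) for the 326 windows of the SLAM family; coloured points are the 35 called windows by member and grey points the others. The Slamf6 window farthest from 0 is at 78.1 and 77.8 points; the choice of called windows by their mean difference nearly fixes that both sexes have the same sign.

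The partners and adaptors of the receptors showed 2 calls at 12 gene starts, both higher in B, where 0.915% of all gene starts were called. The list was drawn up with earlier results of these data known. Neither call was left without the female B or the male B file, and 1 was left without the female T or the male T file. Cd2, an adhesion receptor that binds Cd48, was at 59.9% in female B and 63.8% in male B and at 30.02% and 30.7% in T, a difference of 31.5 points (adjusted p = 0.000584). Sh2d1a, which encodes SAP and lies on the X chromosome, was at 91.5% and 92.7% in B, and at 46.7% in female T and 8.10% in male T (64.7 points on average, adjusted p = 0.000534). Female minus male was 38.6 points in T cells and -1.24 in B cells for this gene; in females 1 copy of the X chromosome is inactive, and its part in the levels was not tested. Of the other 10, Fyn and Prkcq had an adjusted p under 0.05 with differences of 5.77 and 5.84 points. Over whole regions 2 of the 12 were called, Cd2 (28.4 points) and Prkcq (14.9 points), both higher in B and both at an adjusted p of 0.0211, where 0.376% of all gene regions were called. With limma 3 were called, Sh2d1a in addition, where 0.663% of all regions were. Cd244a, the SLAM receptor for Cd48 that overlaps Ly9, had 40.7% and 40.3% in B and 46.9% and 36.1% in T at its start, and the cell types overlapped.

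Of the 19 protein-coding genes of other families with a start between the outermost member regions, none was called at its start, with 2 at an unadjusted p under 0.05 in the quasi-binomial fit, where 14.3% of all gene starts were. With limma none was called either, and 2 were under 0.05 (12.9% of all). The largest difference there was 7.17 points, and the median absolute difference was 1.91 points beside 5.50 over the 8 members. These starts held 20 to 129 CpGs, beside 6 to 29 in the members, and all but that of Gm10521 lay beyond Slamf6. The difference between these groups of genes was not tested.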

How the data were processed

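Bisulfite libraries of B and T cells were sequenced by the authors, and the deposited files give, for each CpG with at least 5 reads, the methylated fraction (0 to 1, 3 decimals) and the read coverage (unit: counts). The submitters' processing notes name Trim Galore, FastQC, Bismark 0.13.1 and mm10; the parameters are not given in the sources used here. Both samples of a group name the same file, and whether it merges them is not stated. The strands were already merged at each CpG. Every position around the family genes on chromosome 1 was a CpG in GRCm38, and other positions were not compared with the reference.

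Methylated reads were recovered as fraction times coverage, which gave whole reads for 100% of values within 0.001 of the fraction, its last decimal. CpGs with at least 5 reads in all 4 files were kept. Reads were summed over 1 kb windows (at least 3 CpGs), over 1 kb to either side of each gene start, and over gene bodies with 10 kb to either side (at least 10 CpGs). A quasi-binomial logistic fit with cell type and sex was made in R 4.3.3 over all features, with dispersions moderated by squeezeVar of limma 3.58.1. There was 1 residual degree of freedom, so the spread was shared: in the window fit each window received the same dispersion of 1.31. P-values were adjusted by Benjamini-Hochberg over all features. In some features at exactly 0% or 100% in both files of a cell type or sex, the quasi-binomial fit gave no usable p-value. These could not be called or counted under 0.05. With sex as a term, the spread behind the p-values is the disagreement of B minus T between the sexes. In the window fit a window's own spread did not enter its p-value. Wilson intervals and limits for a count of 0 (3 reads) cover counting error only, and reads without molecular identifiers are not independent molecules. A read that spans several CpGs was counted at each of them, and the intervals and limits take these counts as independent. The window p-values allow for this only through the shared dispersion.

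The family, the partner list and the markers were chosen with earlier results of these data known. The text names all 8 members, up to 3 called windows per member and direction with the largest smaller-of-both-sexes difference, and partners or neighbouring genes called at their start. Other named values (Fyn, Prkcq and Cd244a, the windows of Ly9 and Slamf8, neighbours of named windows and unmethylated windows) were chosen after their values were seen. Promoters from 250 bases before to 50 after the start were matched by symbol to RefSeq (GRCm38.p6) for 7 of the 8 members, Ly9 excepted. Alternatives were at least 10 reads per CpG, other window sizes and offsets, thresholds and flanks, the mean over CpGs, dispersion priors from all features, limma on log2 ratios (pseudocount 1 read), Fisher's exact test in each sex, and leaving out each file. Fits with a file left out had no sex term.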

Additional observations from a re-analysis of the deposited data

Results flagged for a closer look

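The difference between B and T cells had opposite signs in females and males at 4 member starts and in 2 member regions, none of which was called. The difference between the sexes was not tested, since each cell type had 1 file per sex. At the start of Cd84 the value of B less that of T was -15.7 points for females but 0.156 for males, a gap of -15.8 points on 73 to 79 reads per file. At the start of Slamf8 it was 1.23 and -8.54 points (a gap of 9.78), at that of Slamf6 -0.45 and 3.69 (-4.14), and at that of Ly9 -2.57 and 1.02 (-3.59). Over gene regions B minus T was 5.54 and -0.242 points for Cd48 (5.78) and 0.985 and -0.19 for Slamf8 (1.18).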

How the results depend on the processing

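The 35 called windows (22 higher, 13 lower in B) became 22 (13 higher) with at least 10 reads per CpG, 21 (10 higher) with 2 kb windows, 22 (13 higher) at 30 points, 23 (12 higher) with the spread taken from all windows, and 18 (8 higher) with limma. As a share of the family's windows this was 11.35% with 2 kb windows, beside 1.40% of all windows. It was 6.75% at 30 points (1.04% of all) and 7.1% with the spread taken from all windows (1.56% of all). With at least 10 reads there were 243 family windows and with 2 kb windows 185, in place of 326. What caused the changes was not tested. Windows of 500 bp gave 21 lower in B, a threshold of 10 points 23 lower, and Fisher's exact test in each sex 14 higher. Leaving out 1 file gave 30 to 33 called windows, 15 to 20 higher and 12 to 16 lower. On the same windows 18 of the 35 calls remained with limma and 27 with Fisher's exact test.

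The call at the start of Slamf7 was lost with at least 10 reads per CpG (0 called) and on leaving out any file (0 called each time). The 2 partner starts called fell to 0 to 1 on leaving out a file. The count of 0 for member regions, genes between the members and sex held under every alternative run. Signs reversed among uncalled values. The start of Slamf6 was -2.88 points within 500 bp of the start, and on leaving out a file the start of Ly9 ran from -2.11 to 0.565, that of Slamf9 from -14.3 to 0.0433 (without the male B file; -7.14 with all files) and that of Slamf8 from -8.26 to 0.951. The region of Slamf9 was 2.04 points for the gene body alone and ran from -1.50 to 0.116 on leaving out a file. With the mean over CpGs in place of summed reads the starts of Slamf7, Slamf1 and Slamf9 moved to -31.05, 20.8 and -12.3 points. No pairing by replicate number was made, since the numbers do not repeat across groups; sex was a term of the fit. Single CpGs had 12.8 to 20.5 reads on average, which limits their precision.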
